A study of Mus musculus with 15 samples.

Results

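The erythroid regulators and membrane genes described here are *Gata1*, *Klf1*, *Nfe2*, *Zfpm1*, *Epor*, *Tfrc*, *Slc4a1*, *Epb4.2* and *Ermap*. They were chosen by gene name, as genes of the red cell program other than globin genes and enzymes of heme synthesis, and are 9 of the 17454 genes of the table. Their expression was measured by RNA-seq in erythro-myeloid progenitors (EMPs) sorted from single yolk sacs (YS) of C57BL/6 mouse embryos at E10.5. Of 15 libraries, 5 came from Tie2-Ezh2-KO embryos, 5 from Vav-Ezh2-KO embryos, and 3 and 2 from Tie2-Ezh2-WT and Vav-Ezh2-WT embryos. The question was how EMPs change on loss of Ezh2, the catalytic subunit of a Polycomb repressive complex, in endothelium or in hematopoietic cells.

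Embryos of all 4 groups carried floxed *Ezh2* on both alleles (Ezh2fl/fl). Tie2-Ezh2-KO embryos were Tie2-CreTg/+ and Vav-Ezh2-KO embryos were Vav-CreTg/+, while Tie2-Ezh2-WT embryos (Tie2-Cre+/+) and Vav-Ezh2-WT embryos (Vav-Cre+/+) had no Cre transgene. No group had Cre without the floxed alleles, so effects of Cre itself and of the deletion cannot be told apart. *Tie2*-Cre acts in endothelium and therefore also in the blood cells that descend from it, and *Vav*-iCre acts in hematopoietic cells after they have formed. EMPs were sorted as LIN-negative, SCA1-negative, KIT-positive, CD16/32-positive and CD41-positive cells, with TER119, CD3e, B220, F4/80, GR1 and IL-7R as lineage markers. The labels give 500 sorted cells per library. A smaller number of cells is stated in the published methods.

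Levels are RPKM, the reads of a gene divided by the length of its model and by the size of the library, so levels of different genes can be set side by side. Reads on genes, recovered from the steps between low RPKM values, ranged from 10407398 to 41025074 per library, with a median of 16091836. The cDNA was amplified by PCR, so every interval or floor given for reads covers counting error only. Below, values within a group follow the order of replicates 4, 10 and 12 for Tie2-Ezh2-WT, 4 and 6 for Vav-Ezh2-WT, 7, 9, 11, 13 and 17 for Tie2-Ezh2-KO, and 1, 9, 10, 26 and 28 for Vav-Ezh2-KO. WT means the 5 libraries without Cre together, which both knockouts were compared with, so the comparisons of each knockout with WT share their controls.

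EMPs are progenitors that give rise to red cells and myeloid cells. In the erythroid branch, the zinc finger factor GATA1 acts with its cofactor FOG1, the product of *Zfpm1*, while KLF1 and NF-E2 drive genes of the maturing red cell. Erythropoietin acts through its receptor to keep erythroid progenitors alive, the transferrin receptor brings in iron for heme, and proteins of the membrane skeleton, most abundant late in maturation, give the red cell its shape and deformability.

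The sort was checked against its own markers, of which 9 of 10 are in the table. *Fcgr3*, which encodes CD16, was the most abundant of them at 66.9 to 194 RPKM in every library, *Kit* was at 15.2 to 45.8 RPKM and *Itga2b*, which encodes CD41, at 16.7 to 41.7 RPKM. *Ly6a*, which encodes SCA1, did not exceed 0.877 RPKM, *Il7r* did not exceed 0.983 RPKM and *Emr1*, which encodes F4/80, did not exceed 1.11 RPKM. With limma, 0 of these 9 genes passed the threshold of 0.05 on the adjusted p in any comparison, and 4 had an unadjusted p under 0.05 in Tie2-Ezh2-KO against WT (11% of all genes did), 0 in Vav-Ezh2-KO against WT (7.93%), 2 between the knockouts (16.6%) and 3 in the test of the difference of the knockout effects (6.54%). In Tie2-Ezh2-KO against WT, 7 of the 9 markers were lower and 2 higher, with a median change of -0.16 beside 0.01 for all genes. *Fcgr3* was lower by 0.47 (unadjusted p = 0.00617, adjusted p = 0.131 with limma), and 4 of the 5 knockout libraries were lower than every WT library. The markers summed to a mean of 164 RPKM in Tie2-Ezh2-KO and 210.0 RPKM in WT, and the sums of these groups overlapped.

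*Ezh2*, the targeted gene, was at 36.9, 39.5 and 30.1 RPKM in Tie2-Ezh2-WT and 42.0 and 41.5 RPKM in Vav-Ezh2-WT. The *Ezh2* level was 27.8, 26.2, 24.8, 29.5 and 26.5 RPKM with *Tie2*-Cre and 33.7, 42.4, 37.8, 38.1 and 34.0 RPKM with *Vav*-iCre. Every Tie2-Ezh2-KO library lay below every WT library, and the Vav-Ezh2-KO libraries overlapped with WT. These values sum over the whole gene and do not separate the deleted exons, so they check nothing about the deletion itself, and *Ezh2* shares exons with an annotated gene on the other strand, whose reads are not separated. On the log2(RPKM + 0.2) scale, on which all changes below are given, *Ezh2* fell by 0.48 in Tie2-Ezh2-KO EMPs (standard error 0.12, adjusted p = 0.0418 with limma). This adjusted p from limma was between 0.0107 and 0.344 over all alternatives and missed the threshold without Tie2-Ezh2-WT replicate 4 (0.0760) or 10 (0.114), Vav-Ezh2-WT replicate 4 (0.126) or 6 (0.111), or Tie2-Ezh2-KO replicate 7 (0.0802), 11 (0.0976) or 17 (0.0939). It held in 10 of 21 alternatives, and was also lost with eBayes without trend (0.0923), with limma-voom (0.0818), with Tie2-Ezh2-WT as the only controls (0.344) and without Tie2-Ezh2-WT replicate 4 and Tie2-Ezh2-KO replicate 7 together (0.137). For *Ezh2* in Vav-Ezh2-KO EMPs the value was -0.02 (95% interval -0.25 to 0.21), with a positive sign after quantile normalization (0.00104) and after scaling to a common median (0.0204). Between the knockouts *Ezh2* differed by -0.46 (standard error 0.11, adjusted p = 0.0269 with limma). Every Tie2-Ezh2-KO value was under every Vav-Ezh2-KO value (exact permutation p = 0.00794). That call held in 12 of 19 alternatives, with adjusted p from 0.0141 to 0.0784, and was lost with eBayes without trend (0.0695) and without Tie2-Ezh2-KO replicate 7 (0.0571), 11 (0.0671) or 17 (0.0571) or Vav-Ezh2-KO replicate 9 (0.0784), 10 (0.0685) or 26 (0.0637). The *Ezh2* difference between the knockout effects was -0.22 (95% interval -0.60 to 0.16, adjusted p = 0.972 with limma).

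In WT EMPs the 9 genes covered the range from 0 to over 200 RPKM. *Nfe2* was the most abundant at 228 ± 21.0 RPKM (SD, n = 5), above 97.1% of all genes, followed by *Gata1* at 168 ± 13.0 RPKM and *Klf1* at 145 ± 29.9 RPKM (SD, n = 5 each). All WT values of *Nfe2* lay above those of *Gata1*, with a ratio of the means of 1.36, while the ranges of *Gata1* and *Klf1* overlapped. *Zfpm1* at 28.9 ± 8.08 RPKM, *Tfrc* at 22.6 ± 2.70 RPKM and *Epor* at 21.3 ± 3.00 RPKM (SD, n = 5 each) formed the next step, 5.03-fold below *Klf1* at its upper end, and each overlapped with its neighbor in the order. *Ermap* followed at 2.47 ± 0.813 RPKM and *Epb4.2* at 0.325 ± 0.159 RPKM (SD, n = 5 each), 8.61-fold below *Epor* and a further 7.58-fold below *Ermap*. *Slc4a1* was listed at 0 in every WT library. The order at the top differed between libraries: *Klf1* was the first of the 9 in Tie2-Ezh2-KO replicate 7 and *Gata1* was the first in Vav-Ezh2-KO replicate 9, while *Nfe2* led in the other 13 libraries.

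**Figure D1:**
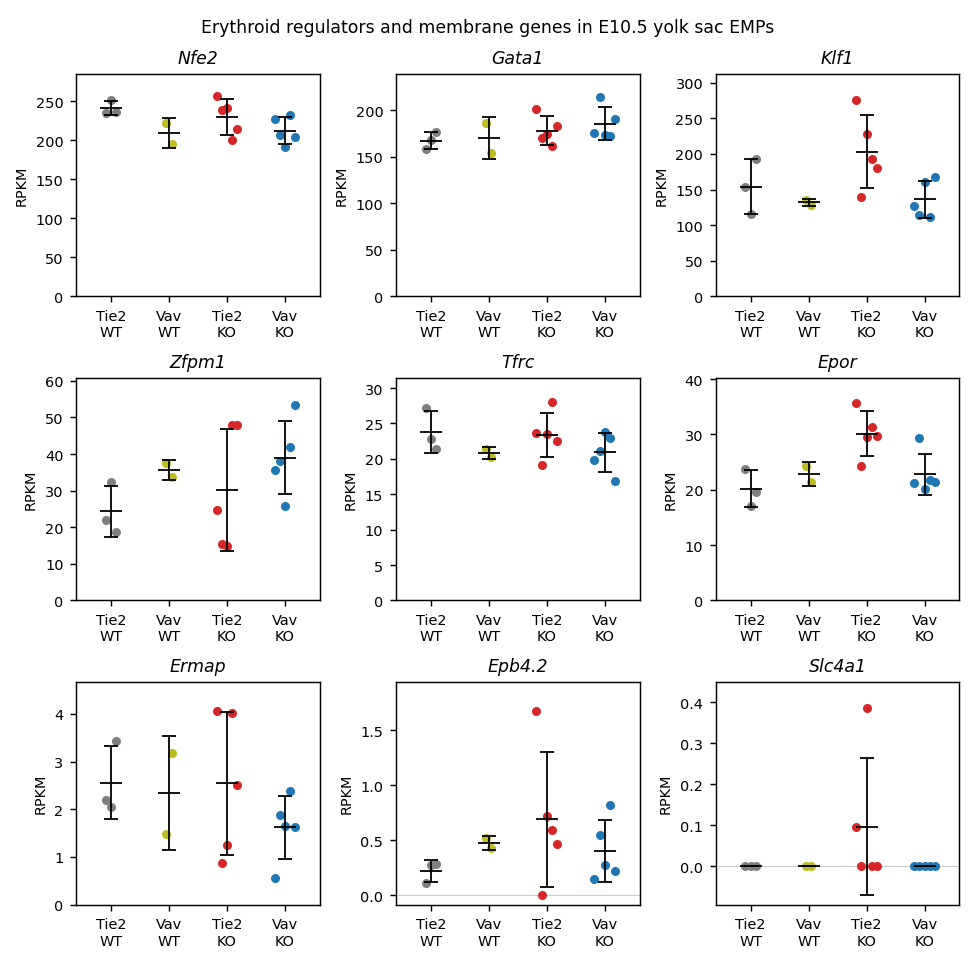
Level of each of the 9 genes in RPKM (vertical axes, each from 0 or just below) in the 15 libraries by group (horizontal axes). Points are libraries, horizontal marks are group means and bars are SD, with *Epor* above all WT libraries in 4 of 5 Tie2-Ezh2-KO libraries and *Slc4a1* above 0 in 2 libraries.

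Each knockout was compared with WT and with the other knockout using limma on all genes that exceeded 0.2 RPKM anywhere in the fit. With limma, 0 of the 9 genes had an adjusted p under 0.05 in Tie2-Ezh2-KO against WT, where 2.73% of 14154 genes did, and 2 of the 9, *Klf1* and *Epor*, had an unadjusted p under 0.05, as did 11% of all genes. In Vav-Ezh2-KO against WT, 0 of the 8 genes tested passed with limma, beside 0.00733% of 13646 genes, and 1, *Zfpm1*, had an unadjusted p under 0.05, beside 7.93%. Between the knockouts, 0 of 9 passed with limma, beside 3.51% of 14120 genes, and 2, *Klf1* and *Epor*, had an unadjusted p under 0.05, beside 16.6%. In the test of whether the effects of the 2 Cre lines differ, each against its own WT, 0 of 9 passed with limma, beside 0.181% of 14394 genes, and 1, *Epor*, had an unadjusted p under 0.05, beside 6.54%. None of these 4 counts at the adjusted threshold was above 0 with limma-voom on the recovered reads.

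The median change of the 9 genes was 0.08 in Tie2-Ezh2-KO against WT, beside 0.01 for all genes tested, with 7 of 9 above 0. Against WT, the 8 genes tested in Vav-Ezh2-KO had a median change of 0.0038, beside -0.02 for all genes, with 4 above 0. Between the knockouts, the median was 0.35, beside 0.04, with 7 of 9 higher in Tie2-Ezh2-KO. *Slc4a1*, at 0 in all WT and all Vav-Ezh2-KO libraries, could only come out higher in Tie2-Ezh2-KO, and without it 6 of 8 genes were higher in both comparisons, with medians of 0.06 against WT and 0.25 between the knockouts. For 0 of the 9 genes did the libraries of the groups lie fully apart, beside 4.01% of genes in Tie2-Ezh2-KO against WT, 1.41% in Vav-Ezh2-KO against WT and 5.23% between the knockouts. In bulk RNA, fewer cells of a type and less RNA per cell cannot be told apart. In two-sided exact permutation tests of 5 against 5 libraries, whose smallest possible p is 0.00794, 3 of the 27 tests of a gene in a comparison had a p under 0.05. They were 1 of 9 genes in Tie2-Ezh2-KO against WT, where 10.2% of all genes had such a p, 0 of 9 in Vav-Ezh2-KO against WT, beside 7.3%, and 2 of 9 between the knockouts, beside 15%. *Slc4a1*, at 0 in every Vav-Ezh2-KO and WT library, could not differ between them, and the shares of all genes leave such genes out.

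**Figure D2:**
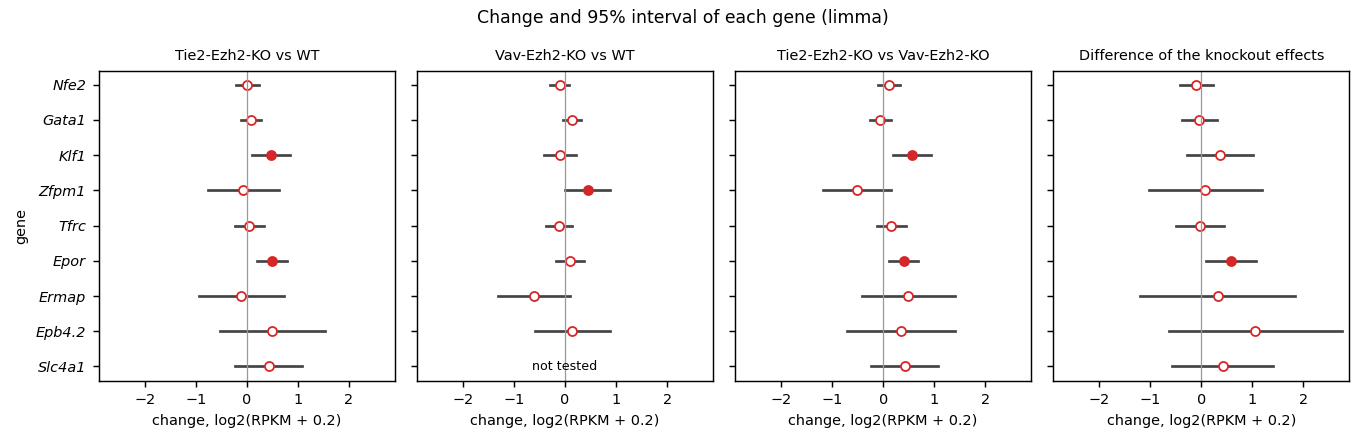
Change of each gene on the log2(RPKM + 0.2) scale (horizontal axes) with its 95% interval from limma, in each of the 4 comparisons. Filled points have an unadjusted p under 0.05: *Klf1* and *Epor* in Tie2-Ezh2-KO against WT and between the knockouts, *Zfpm1* in Vav-Ezh2-KO against WT and *Epor* in the difference of the knockout effects.

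*Gata1* encodes the factor that erythroid genes share. Its levels were 158, 168 and 176 RPKM in Tie2-Ezh2-WT and 186 and 154 RPKM in Vav-Ezh2-WT. Tie2-Ezh2-KO libraries had 201.4, 169.9, 174, 161 and 183 RPKM of *Gata1*, and Vav-Ezh2-KO libraries had 176, 214, 173, 173 and 190.2 RPKM. The 3 groups overlapped, and Tie2-Ezh2-KO replicate 7 and Vav-Ezh2-KO replicates 9 and 28 lay above all WT values of *Gata1*. The change in *Gata1* was 0.08 (95% interval -0.12 to 0.28) in Tie2-Ezh2-KO and 0.14 (-0.05 to 0.32) in Vav-Ezh2-KO against WT, and -0.06 (-0.27 to 0.15) between the knockouts. A p that misses the threshold does not show that the levels are equal, and these intervals give the sizes the data allow. The difference of the knockout effects on *Gata1* was -0.04 (-0.38 to 0.30), with a positive sign after quantile normalization (0.00347). Among 5466 genes with a mean of at least 10 RPKM, 7.52% had a smaller spread within groups than *Gata1* (SD 0.12 on the log2 scale).

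*Zfpm1* varied far more. WT libraries had 21.9, 32.3 and 18.8 RPKM in Tie2-Ezh2-WT and 37.6 and 33.8 RPKM in Vav-Ezh2-WT. In Tie2-Ezh2-KO EMPs, *Zfpm1* was at 24.8, 15.6, 14.9, 47.9 and 48.0 RPKM, and in Vav-Ezh2-KO EMPs at 35.6, 38.2, 25.8, 41.9 and 53.3 RPKM. Tie2-Ezh2-KO replicates 13 and 17 lay above every WT library and replicates 9 and 11 below every WT library, so the group straddled WT. The within-group SD of *Zfpm1* on the log2 scale was 0.58, larger than in 98.4% of the 5466 genes of at least 10 RPKM. Its change was -0.07 (95% interval -0.76 to 0.62) in Tie2-Ezh2-KO against WT, where the sign turned with limma-voom (0.00499) and with Tie2-Ezh2-WT as the only controls (0.17). In Vav-Ezh2-KO EMPs, 3 of 5 libraries lay above all WT libraries, with a change in *Zfpm1* of 0.44 (95% interval 0.00 to 0.88, adjusted p = 0.629 with limma). Against Vav-Ezh2-WT alone this change was 0.09, the smallest over the alternatives. The exact permutation p of Vav-Ezh2-KO against all WT libraries was 0.127. Over the alternatives it reached 0.262 and was under 0.05 in 1 of 19, at 0.0476 without Vav-Ezh2-KO replicate 10, the lowest of its group.

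*Klf1* encodes a factor that activates genes of the maturing red cell. WT libraries had 153, 116 and 193 RPKM in Tie2-Ezh2-WT and 136 and 129 RPKM in Vav-Ezh2-WT. In Tie2-Ezh2-KO EMPs, *Klf1* was at 276, 139, 228, 192 and 180.3 RPKM, and in Vav-Ezh2-KO EMPs at 127, 115, 161, 111 and 167 RPKM. Replicate 9 was the lowest Tie2-Ezh2-KO library, inside the range of WT, and the other 4 lay above every Vav-Ezh2-KO library, so the knockouts overlapped through 1 library. Means were 203 ± 51.8 RPKM in Tie2-Ezh2-KO and 136 ± 26.4 RPKM in Vav-Ezh2-KO EMPs (SD, n = 5 each). The difference between the knockouts was 0.56 (95% interval 0.19 to 0.93, standard error 0.17, adjusted p = 0.0937 with limma), which missed the threshold. The adjusted p of this *Klf1* difference with limma ranged from 0.0149 to 0.203 over the alternatives and was under 0.05 only without Tie2-Ezh2-KO replicate 9 (0.0149). Its exact permutation p was 0.0397, and 0.0635, 0.0635, 0.0556, 0.0794, 0.0794 and 0.0794 without Tie2-Ezh2-KO replicate 7, 11 or 13 or Vav-Ezh2-KO replicate 1, 9 or 26, and 0.0714 after scaling to a common median.

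Against WT, the 95% interval of the *Klf1* change in Tie2-Ezh2-KO EMPs was 0.10 to 0.84, and its adjusted p with limma was 0.249, from 0.0515 to 0.768 over the alternatives. All 5 Tie2-Ezh2-KO libraries lay above the WT median of *Klf1* (exact permutation p = 0.0635, and 0.0317 without Tie2-Ezh2-WT replicate 12 or without Tie2-Ezh2-KO replicate 9). In Vav-Ezh2-KO EMPs the change in *Klf1* was -0.09 (95% interval -0.40 to 0.22), with a positive sign against Vav-Ezh2-WT alone (0.02). The difference of the knockout effects on *Klf1*, each against its own WT, was 0.37 (95% interval -0.27 to 1.01, adjusted p = 0.973 with limma). *Klf1* had a within-group SD of 0.31 on the log2 scale, larger than in 81.4% of genes of at least 10 RPKM.

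*Nfe2* encodes the hematopoietic subunit of the factor NF-E2. Its levels were 235, 251 and 236 RPKM in Tie2-Ezh2-WT and 223 and 195 RPKM in Vav-Ezh2-WT. Tie2-Ezh2-KO libraries had 256, 239, 241, 200.3 and 214 RPKM of *Nfe2*, and Vav-Ezh2-KO libraries had 228, 207, 191, 233 and 205 RPKM. All 3 groups overlapped, and each Vav-Ezh2-KO library was under the WT median, with replicate 10 under the lowest WT library. In Tie2-Ezh2-KO EMPs the change in *Nfe2* was 0.01 (95% interval -0.21 to 0.23), with a negative sign against Tie2-Ezh2-WT alone (-0.07). The change was -0.10 (-0.29 to 0.08) in Vav-Ezh2-KO EMPs, with a positive sign against Vav-Ezh2-WT alone (0.02), and 0.11 (-0.10 to 0.32) between the knockouts. The spread of *Nfe2* within groups (SD 0.13 on the log2 scale) was among the smaller ones, with 11.6% of genes of at least 10 RPKM below it.

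*Epor* encodes the erythropoietin receptor. It is on chromosome 9 from 21958897 to 21963506 on the minus strand (GRCm38), and it shared no exon with another annotated gene. WT libraries had 23.8, 17.1 and 19.6 RPKM in Tie2-Ezh2-WT and 24.4 and 21.3 RPKM in Vav-Ezh2-WT. In Tie2-Ezh2-KO EMPs, *Epor* was at 35.6, 24.3, 29.5, 31.3 and 29.7 RPKM, and in Vav-Ezh2-KO EMPs at 21.3, 29.4, 20.1, 21.7 and 21.5 RPKM. Tie2-Ezh2-KO replicates 7, 11, 13 and 17 lay above every WT and every Vav-Ezh2-KO library, and replicate 9 lay inside the WT range. Replicate 9 of Vav-Ezh2-KO, at 29.4 RPKM, stood far above the others of its group.

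Means of *Epor* were 21.3 ± 3.00 RPKM in WT, 30.1 ± 4.06 RPKM in Tie2-Ezh2-KO and 22.8 ± 3.73 RPKM in Vav-Ezh2-KO EMPs (SD, n = 5 each). The difference of Tie2-Ezh2-KO from WT was 0.50, or 1.41-fold (95% interval 0.21 to 0.79 on the log2 scale, standard error 0.14, adjusted p = 0.0740 with limma), which missed the threshold. Over all alternatives the adjusted p of *Epor* with limma ranged from 0.0256 to 0.202. It was under 0.05 after quantile normalization (0.0398), after scaling to a common median (0.0391), in a fit of all 15 libraries (0.0467) and without Tie2-Ezh2-KO replicate 9 (0.0256). The exact permutation p of *Epor* was 0.0159, and 0.0571 without Tie2-Ezh2-WT replicate 4 and Tie2-Ezh2-KO replicate 7 together, a choice made after seeing the data.

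Between the knockouts, the *Epor* difference was 0.40 (95% interval 0.11 to 0.69, adjusted p = 0.132 with limma, from 0.0398 without Tie2-Ezh2-KO replicate 9 to 0.274 over the alternatives). Its exact permutation p was 0.0159, with 4 of 5 Tie2-Ezh2-KO libraries above all Vav-Ezh2-KO libraries. In Vav-Ezh2-KO EMPs the change in *Epor* against WT was 0.10 (95% interval -0.18 to 0.38), with a negative sign against Vav-Ezh2-WT alone (-0.01). Each knockout against its own WT, the effects on *Epor* differed by 0.59 (95% interval 0.10 to 1.08, adjusted p = 0.613 with limma), which missed the threshold.

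*Tfrc* encodes the transferrin receptor that takes up iron. WT libraries had 27.1, 22.8 and 21.4 RPKM in Tie2-Ezh2-WT and 21.4 and 20.2 RPKM in Vav-Ezh2-WT. In Tie2-Ezh2-KO EMPs, *Tfrc* was at 23.7, 19.2, 23.5, 28.0 and 22.5 RPKM, and in Vav-Ezh2-KO EMPs at 19.9, 21.1, 23.8, 22.9 and 16.9 RPKM. The groups overlapped, with Tie2-Ezh2-KO replicate 13 the highest and Vav-Ezh2-KO replicate 28 the lowest of all libraries. The change in *Tfrc* was 0.05 (95% interval -0.23 to 0.32) in Tie2-Ezh2-KO EMPs, with a negative sign against Tie2-Ezh2-WT alone (-0.03), and -0.11 (-0.37 to 0.14) in Vav-Ezh2-KO EMPs. Between the knockouts it was 0.16 (-0.13 to 0.45), and the knockout effects differed by -0.02 (-0.49 to 0.44), with a positive sign with limma-voom (0.03). Among genes of at least 10 RPKM, 35.2% had a smaller within-group SD than *Tfrc* (0.18 on the log2 scale).

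The membrane genes were low. *Slc4a1*, the anion exchanger band 3 of the mature red cell, was listed at 0 in 13 libraries and had 7 reads (0.0965 RPKM) in Tie2-Ezh2-KO replicate 7 and 26 reads (0.386 RPKM) in replicate 11. In the libraries at 0, the level that 3 reads would give lay between 0.0161 and 0.0634 RPKM. WT and Vav-Ezh2-KO EMPs were therefore at or under the floor in every library, and 2 of 5 Tie2-Ezh2-KO libraries above it. The change in *Slc4a1* had a 95% interval of -0.24 to 1.08 in Tie2-Ezh2-KO EMPs against WT (exact permutation p = 0.444), with values from 0.12 to 1.94 over the alternatives, and Vav-Ezh2-KO against WT was not tested with limma, because all 10 libraries were at 0.

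*Epb4.2*, now *Epb42*, encodes a protein that links band 3 to the membrane skeleton. WT libraries had 0.111, 0.273 and 0.288 RPKM in Tie2-Ezh2-WT and 0.522 and 0.433 RPKM in Vav-Ezh2-WT. In Tie2-Ezh2-KO EMPs, *Epb4.2* was at 1.68, 0, 0.719, 0.591 and 0.465 RPKM, and in Vav-Ezh2-KO EMPs at 0.153, 0.547, 0.273, 0.826 and 0.221 RPKM. Tie2-Ezh2-KO held both ends, with replicate 7 the highest of all libraries and replicate 9 at 0, where 3 reads would give 0.0565 RPKM. The change in *Epb4.2* was 0.49 (95% interval -0.53 to 1.52) in Tie2-Ezh2-KO EMPs against WT, with an exact permutation p of 0.405. Over the alternatives this p reached 0.971 and was under 0.05 in 1 of 19, at 0.0317 without Tie2-Ezh2-KO replicate 9, the lowest of its group. The change in *Epb4.2* was 0.14 (-0.59 to 0.88) in Vav-Ezh2-KO EMPs against WT, with a negative sign with limma-voom (-0.04) and against Vav-Ezh2-WT alone (-0.28), and 0.35 (-0.71 to 1.41) between the knockouts.

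*Ermap* encodes an erythroid membrane protein of the immunoglobulin superfamily. WT libraries had 2.20, 2.04 and 3.43 RPKM in Tie2-Ezh2-WT and 1.49 and 3.18 RPKM in Vav-Ezh2-WT. In Tie2-Ezh2-KO EMPs, *Ermap* was at 4.07, 0.877, 1.25, 4.01 and 2.51 RPKM, and in Vav-Ezh2-KO EMPs at 0.560, 1.87, 1.64, 2.39 and 1.63 RPKM. Tie2-Ezh2-KO replicates 7 and 13 were above and replicates 9 and 11 below all WT libraries, and in Vav-Ezh2-KO EMPs 4 of 5 libraries were below the WT median. The change in *Ermap* was -0.11 (95% interval -0.95 to 0.73) in Tie2-Ezh2-KO and -0.60 (-1.31 to 0.10) in Vav-Ezh2-KO EMPs against WT, and 0.49 (-0.42 to 1.40) between the knockouts. The exact permutation p of Vav-Ezh2-KO against WT was 0.135. Over the alternatives it reached 0.302 and was under 0.05 in 1 of 19, at 0.0476 without Vav-Ezh2-WT replicate 4. These intervals are wide, and a within-group SD of 0.70 for *Ermap* and 0.82 for *Epb4.2* was found on the log2 scale, above 86.8% and 93.0% of the 10077 genes under 10 RPKM. Tie2-Ezh2-KO replicate 9 was the lowest of its group for 5 of the 9 genes, *Klf1*, *Epor*, *Tfrc*, *Epb4.2* and *Ermap*.

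Across the 15 libraries, the 8 genes with values above 0 in most libraries formed 28 pairs, which share library and depth. The Pearson r of log2(RPKM + 0.2) had a median of 0.20, was above 0 in 22 pairs and ranged from -0.52 (*Nfe2* and *Zfpm1*) to 0.59 (*Klf1* and *Epor*). For *Klf1* and *Epor* Spearman's rho was 0.42 (permutation p = 0.0214 for r and 0.122 for rho, 0.252 and 0.570 after Benjamini-Hochberg adjustment over the 28 pairs). Without the 2 libraries farthest from the median of *Klf1*, their r was 0.27. Leaving out extreme values narrows the range of *Klf1*, so this lower r cannot show whether the relation rests on those libraries. With group means removed, r was 0.24 for *Klf1* and *Epor*, and the highest r was then 0.63, of *Epb4.2* and *Ermap* (0.57 over all libraries, 0.29 without the 2 libraries farthest from the median of *Epb4.2*). *Epor* and *Epb4.2* had r = 0.56 and rho = 0.58 (adjusted permutation p = 0.252 and 0.348), and their r was 0.57 with group means removed and 0.38 without the 2 libraries farthest from the median of *Epor*. For *Nfe2* and *Zfpm1* rho was -0.60 (permutation p = 0.0496 for r and 0.0204 for rho, adjusted 0.347 and 0.348), and r was -0.69 without the 2 libraries farthest from the median and -0.43 with group means removed. No pair passed the adjusted threshold, the lowest adjusted permutation p being 0.252 for r and 0.348 for rho.

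For each of the 9 genes, the 2 genes with the highest r over the 15 libraries were taken from the other genes with a mean of at least 1 RPKM (9885 or 9886 genes). Having been picked for their r, they are given as a description without a p. Nearest to *Gata1* were *Lat2* (r = 0.79, rho = 0.70) and *Lmo4* (r = 0.77, rho = 0.67). *Klf1* was nearest to *Nqo1* (r = 0.87, rho = 0.84) and *Slc29a1* (r = 0.86, rho = 0.79), of which *Slc29a1* encodes a nucleoside transporter and is on the list of red cell membrane genes. *Zfpm1* had *Pxn* (r = 0.96, rho = 0.88) and *Fanca* (r = 0.96, rho = 0.94), and 276 genes reached an r of at least 0.8 with it, the highest number of the 9. *Epor*, with 34 such genes, was nearest to *Usp51* (r = 0.90, rho = 0.96) and *Nrarp* (r = 0.88, rho = 0.90). *Tfrc*, with 65, was nearest to *Sirt1* (r = 0.92, rho = 0.91) and *Tmod3* (r = 0.92, rho = 0.82), and *Nfe2* to *Tlcd2* (r = 0.87, rho = 0.86) and *Tmem222* (r = 0.83, rho = 0.86). Among the membrane genes, *Epb4.2* had *Dcbld1* (r = 0.85, rho = 0.88) among its nearest, and *Ermap* was nearest to *Ptpra* (r = 0.81, rho = 0.83) and *Dbnl* (r = 0.81, rho = 0.81). *Slc4a1*, above 0 in 2 libraries, was nearest to *Rab8a* (r = 0.88, rho = 0.59) and *Ly6g6c* (r = 0.88, rho = 0.50), values that rest on those libraries.

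The other genes of these pathways were read from 5 lists of 103 genes, of which 102 are in the table and 99 were tested. With limma, 4 of the 99 rose and 0 fell in Tie2-Ezh2-KO against WT (4.04%, beside 2.42% of all genes that were higher), and 18 had an unadjusted p under 0.05, as did 11% of all genes. In Vav-Ezh2-KO against WT, 0 of 99 passed with limma, and 8 had an unadjusted p under 0.05, beside 7.93% of all genes. Between the knockouts, 5 were higher in Tie2-Ezh2-KO, where 2.63% of all genes tested were, and 1 was lower, which is 6.06% in either direction beside 3.51% of all genes, and 26 had an unadjusted p under 0.05, beside 16.6%. Of all 495 genes past the threshold between the knockouts, 75.2% were higher in Tie2-Ezh2-KO, and after quantile normalization 63.8% of 528 were (337 higher and 191 lower). In the difference of the knockout effects 0 of 99 passed with limma (10 at an unadjusted p under 0.05, beside 6.54% of all genes), and of the 26 genes of the table that did, 23 were higher and 3 lower, or 9 and 3 after quantile normalization.

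Among 20 partners and other factors of erythroid transcription, of which 19 were tested, 0 passed in Tie2-Ezh2-KO against WT with limma and 1 had an unadjusted p under 0.05 (11% of all genes did), with a median change of -0.07 beside 0.01 for all genes. Against WT, Vav-Ezh2-KO EMPs had 0 past the threshold with limma, and 2 had an unadjusted p under 0.05 (beside 7.93%). Between the knockouts 1 of 19 was higher in Tie2-Ezh2-KO (beside 2.63% of all genes), *Gfi1b*, a repressor needed for red cells and megakaryocytes. *Gfi1b* was at 194, 227 and 199 RPKM in Tie2-Ezh2-WT and 251.8 and 168 RPKM in Vav-Ezh2-WT, at 299.9, 331, 283, 202 and 217 RPKM in Tie2-Ezh2-KO and at 191, 175, 177, 188 and 154 RPKM in Vav-Ezh2-KO. All Tie2-Ezh2-KO libraries lay above all Vav-Ezh2-KO libraries and 3 of 5 above all WT libraries. The difference between the knockouts was 0.57 (standard error 0.13, adjusted p = 0.0300 with limma). Over the alternatives the adjusted p of *Gfi1b* with limma ranged from 0.00815 to 0.114. It missed the threshold without Tie2-Ezh2-KO replicate 7 (0.0819) or 11 (0.0751) or Vav-Ezh2-KO replicate 1 (0.0506), 9 (0.0649), 10 (0.0635) or 28 (0.0833), after scaling to a common median (0.114), without a filter on low values (0.0605) and with eBayes without trend (0.101). *Foxo3* and *E2f4*, the next by p in Tie2-Ezh2-KO against WT, had changes of -0.49 and -0.16 (95% intervals -1.08 to 0.11 and -0.35 to 0.04).

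Of 20 genes of erythropoietin signaling, 1 rose in Tie2-Ezh2-KO against WT with limma (beside 2.42% of all genes) and 5 had an unadjusted p under 0.05 (beside 11%), with a median change of -0.10 beside 0.01 for all genes. The gene that rose was *Socs2*, an inhibitor that cytokine receptors induce through STAT5. *Socs2* was at 2.07, 2.27 and 2.32 RPKM in Tie2-Ezh2-WT and 2.27 and 1.49 RPKM in Vav-Ezh2-WT, at 6.33, 5.14, 3.83, 3.15 and 4.65 RPKM in Tie2-Ezh2-KO and at 2.44, 4.63, 2.51, 1.51 and 1.88 RPKM in Vav-Ezh2-KO. All 5 Tie2-Ezh2-KO libraries lay above all WT libraries and, through Vav-Ezh2-KO replicate 9, overlapped with Vav-Ezh2-KO. *Socs2* rose, with a change of 1.06 (standard error 0.24, adjusted p = 0.0267 with limma). The adjusted p of *Socs2* with limma ranged from 0.0172 to 0.164 over the alternatives. It missed the threshold without Tie2-Ezh2-WT replicate 4 (0.0536), Vav-Ezh2-WT replicate 4 (0.0545) or 6 (0.0710) or Tie2-Ezh2-KO replicate 7 (0.0813) or 17 (0.0660), after quantile normalization (0.0785) against Tie2-Ezh2-WT alone (0.164) and without Tie2-Ezh2-WT replicate 4 and Tie2-Ezh2-KO replicate 7 together (0.141).

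*Grb2*, an adaptor of receptor signaling, was the only gene of this list past the threshold between the knockouts with all libraries (beside 3.51% of all genes), and 2 passed without Tie2-Ezh2-KO replicate 7 or 9 or Vav-Ezh2-KO replicate 1 or 9. Of all genes, 345, 969, 356 and 379 passed in those fits, in place of 495. *Grb2* was at 54.4, 59.5 and 49.8 RPKM in Tie2-Ezh2-WT and 63.9 and 67.9 RPKM in Vav-Ezh2-WT, at 49.3, 46.7, 42.2, 48.0 and 46.0 RPKM in Tie2-Ezh2-KO and at 61.7, 71.1, 61.7, 72.5 and 84.1 RPKM in Vav-Ezh2-KO. No Tie2-Ezh2-KO library reached the lowest *Grb2* value of WT or of Vav-Ezh2-KO. The difference in *Grb2* between the knockouts was -0.59 (standard error 0.11, adjusted p = 0.00638 with limma, and at most 0.0351 in all alternatives). *Pim1* had a change of -0.91 in Tie2-Ezh2-KO against WT (95% interval -1.66 to -0.16, adjusted p = 0.282 with limma). Of the 20 genes of erythropoietin signaling 0 passed in Vav-Ezh2-KO against WT with limma, and 2 had an unadjusted p under 0.05 (beside 7.93% of all genes).

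Of 20 genes of iron uptake and storage 19 are in the table, and 0 passed with limma in any of the 4 tests. The numbers with an unadjusted p under 0.05 were 1 in Tie2-Ezh2-KO against WT (beside 11% of all genes), 2 in Vav-Ezh2-KO against WT (7.93%), 4 between the knockouts (16.6%) and 0 in the difference of the effects (6.54%). Without Tie2-Ezh2-KO replicate 9, 2 of the iron genes passed against WT and 3 between the knockouts, and without Vav-Ezh2-KO replicate 26, 1 passed between the knockouts. Of all genes, 438 passed against WT without Tie2-Ezh2-KO replicate 9, in place of 386. Between the knockouts 969 did so, and 417 without Vav-Ezh2-KO replicate 26, in place of 495. The median change was -0.09 in Tie2-Ezh2-KO against WT, beside 0.01 for all genes. *Slc40a1*, the iron exporter ferroportin, had the lowest p there: it was at 2.81, 0.449 and 1.14 RPKM in Tie2-Ezh2-WT and 0.894 and 1.497 RPKM in Vav-Ezh2-WT and at 5.74, 0.832, 3.33, 3.74 and 4.38 RPKM in Tie2-Ezh2-KO, with 4 of 5 libraries above all WT libraries. Its change was 1.27 (95% interval 0.25 to 2.28, adjusted p = 0.258 with limma, between 0.0276 and 0.588 over the alternatives and under 0.05 only without Tie2-Ezh2-KO replicate 9). *Exoc6* and *Tfr2*, the next by p, had changes of -0.27 and -0.75 (95% intervals -0.54 to 0.00 and -1.56 to 0.06).

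The list of red cell membrane and transporter genes held 33 genes, of which 32 were tested. With limma, 3 of 32 rose in Tie2-Ezh2-KO against WT (beside 2.42% of all genes), 11 had an unadjusted p under 0.05 (beside 11% of all genes), and the median change was 0.12, beside 0.01 for all genes. In place of 3, 1 of this list rose without Tie2-Ezh2-KO replicate 7 or 11, and 5 without replicate 9. Of all genes, 253, 281 and 389 rose without replicates 7, 11 and 9, in place of 343. Against WT, 0 passed in Vav-Ezh2-KO with limma, 1 had an unadjusted p under 0.05 (beside 7.93%) and the median was 0.00049, beside -0.02. Between the knockouts, 3 of 32 were higher in Tie2-Ezh2-KO (beside 2.63%), 11 had an unadjusted p under 0.05 (beside 16.6%) and the median was 0.22, beside 0.04. Without Tie2-Ezh2-KO replicate 9, 6 passed the threshold, as did 969 of all genes in place of 495. In the difference of the knockout effects 0 passed with limma and 5 had an unadjusted p under 0.05 (beside 6.54%).

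*Tspan33*, a tetraspanin of erythroid progenitors, was at 3.78, 1.71 and 4.06 RPKM in Tie2-Ezh2-WT and 3.29 and 1.33 RPKM in Vav-Ezh2-WT, at 18.5, 10.02, 19.2, 18.2 and 17.03 RPKM in Tie2-Ezh2-KO and at 2.42, 3.69, 2.605, 3.99 and 0.747 RPKM in Vav-Ezh2-KO. All Tie2-Ezh2-KO libraries lay above the 10 others, with replicate 9 the lowest of them. *Tspan33* rose against WT, with a change of 2.55 (standard error 0.30, adjusted p = 0.000218 with limma) and differed by 2.67 between the knockouts (adjusted p = 0.000452 with limma). Both calls held in all alternatives, with adjusted p of at most 0.00188 and 0.00444 with limma. The difference of the knockout effects on *Tspan33* was 2.21 (95% interval 0.84 to 3.57, adjusted p = 0.279 with limma), which missed the threshold.

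*Rhd*, a component of the Rh complex of the red cell membrane, was at 1.40, 0.334 and 3.11 RPKM in Tie2-Ezh2-WT and 1.77 and 2.71 RPKM in Vav-Ezh2-WT, at 8.12, 5.27, 9.85, 4.14 and 6.73 RPKM in Tie2-Ezh2-KO and at 0.491, 2.76, 1.72, 1.84 and 0.368 RPKM in Vav-Ezh2-KO. All Tie2-Ezh2-KO libraries lay above the 10 others. *Rhd* rose against WT, with a change of 1.95 (standard error 0.42, adjusted p = 0.0214 with limma, from 0.0138 to 0.122 over the alternatives). This call held in 15 of 21 alternatives and was lost without Tie2-Ezh2-KO replicate 7 (0.0606) or 11 (0.0653), without a filter on low values (0.0626), with eBayes without trend (0.0513), with limma-voom (0.0702) and without Tie2-Ezh2-WT replicate 4 and Tie2-Ezh2-KO replicate 7 together (0.122). Between the knockouts the difference in *Rhd* was 2.31 (adjusted p = 0.00627 with limma, at most 0.0259 in all alternatives), and the difference of the knockout effects was 3.08 (95% interval 1.27 to 4.88, adjusted p = 0.232 with limma).

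*Cldn13*, a claudin of erythroid cells, was at 1.62, 0.0591 and 1.57 RPKM in Tie2-Ezh2-WT and 0 and 0.749 RPKM in Vav-Ezh2-WT, at 5.16, 3.49, 4.92, 1.78 and 2.79 RPKM in Tie2-Ezh2-KO and at 0, 2.59, 0.554, 1.46 and 0.716 RPKM in Vav-Ezh2-KO. All Tie2-Ezh2-KO libraries lay above all WT libraries, and the knockouts overlapped. *Cldn13* rose, with a change of 2.38 (standard error 0.59, adjusted p = 0.0442 with limma). Of 21 alternatives 5 left *Cldn13* past the threshold, and the adjusted p ranged from 0.0236 to 0.195. Among the losses were those after quantile normalization (0.0762), with limma-voom (0.106), in a fit of all 15 libraries (0.0598), with a pseudocount of 0.05 (0.0798), without a filter (0.109), with a mean of at least 1 RPKM (0.0522), with eBayes without trend (0.0880) and against Tie2-Ezh2-WT alone (0.195). The *Cldn13* call was also lost without Tie2-Ezh2-WT replicate 10 (0.110), Vav-Ezh2-WT replicate 4 (0.0942) or 6 (0.0654), or Tie2-Ezh2-KO replicate 7 (0.116), 9 (0.0687), 11 (0.105) or 17 (0.0725). Between the knockouts the adjusted p of *Cldn13* was 0.0660 with limma, for a difference of 1.97 (95% interval 0.79 to 3.16).

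*Kcnn4*, the calcium-activated potassium channel of the red cell, was at 34.8, 24.2 and 32.8 RPKM in Tie2-Ezh2-WT and 20.9 and 25.6 RPKM in Vav-Ezh2-WT, at 58.5, 22.5, 45.8, 55.3 and 52.7 RPKM in Tie2-Ezh2-KO and at 22.8, 24.7, 20.9, 26.3 and 23.0 RPKM in Vav-Ezh2-KO. Tie2-Ezh2-KO replicate 9 lay inside both other groups, and the other 4 lay above all 10 libraries. The difference between the knockouts in *Kcnn4* was 0.92 (standard error 0.21, adjusted p = 0.0251 with limma, from 0.00017 to 0.0756 over the alternatives). It missed the threshold without Tie2-Ezh2-KO replicate 7 (0.0702), 11 (0.0588), 13 (0.0638) or 17 (0.0571) or Vav-Ezh2-KO replicate 1 (0.0573), 10 (0.0616) or 28 (0.0638), without a filter on low values (0.0633) and with eBayes without trend (0.0756). Against WT the change in *Kcnn4* was 0.71 (95% interval 0.22 to 1.21, adjusted p = 0.155 with limma), which missed the threshold.

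**Figure D3:**
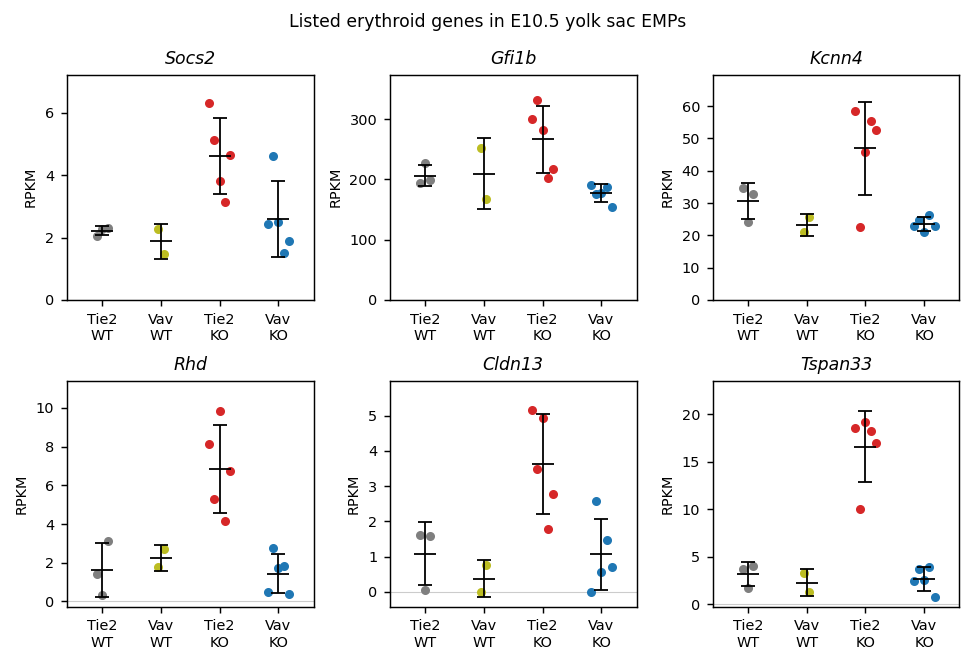
Levels in RPKM (vertical axes, each from 0 or just below) of 6 genes of the erythroid lists in the 15 libraries by group (horizontal axes). Points are libraries, horizontal marks are group means and bars are SD, with *Rhd* and *Tspan33* above the 10 other libraries in all 5 Tie2-Ezh2-KO libraries.

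Of 10 factors of the myeloid branch, 9 were tested. With limma 0 passed against WT in either knockout, with 0 and 1 at an unadjusted p under 0.05 (beside 11% and 7.93% of all genes). *Gfi1* was higher in Tie2-Ezh2-KO than in Vav-Ezh2-KO EMPs, the only gene of this list past that test (beside 2.63% of all genes that were higher). Without Tie2-Ezh2-KO replicate 9, 2 of the list passed it, as did 969 of all genes in place of 495. *Gfi1* was measured at 0.186, 0.448 and 0.847 RPKM in Tie2-Ezh2-WT and 0.454 and 1.03 RPKM in Vav-Ezh2-WT, at 1.25, 0.421, 0.261, 0.324 and 0.580 RPKM in Tie2-Ezh2-KO and at 0.0342, 0, 0.0573, 0 and 0.0448 RPKM in Vav-Ezh2-KO. The Vav-Ezh2-KO libraries, with at most 4 reads each, lay below the 10 others. The difference between the knockouts in *Gfi1* was 1.63 (standard error 0.32, adjusted p = 0.00906 with limma, at most 0.0325 in the 18 alternatives that tested it, which a filter of at least 1 RPKM did not). With so few reads in Vav-Ezh2-KO its size depends on the scale: it was 0.58 with a pseudocount of 1, 2.87 with a pseudocount of 0.05 and 4.04 with limma-voom. Its change in Vav-Ezh2-KO against WT was -1.70 (95% interval -2.37 to -1.02, adjusted p = 0.203 with limma), which missed the threshold. *Gfi1* shares exons with an annotated gene on the other strand, and the kit does not mark strand, so their reads cannot be told apart. *Sfpi1*, the most abundant gene of this list, had a difference between the knockouts of 0.40 (95% interval 0.13 to 0.67), and *Egr1* and *Runx1* had changes of -0.26 and -0.20 in Tie2-Ezh2-KO against WT (95% intervals -0.69 to 0.17 and -0.57 to 0.17).

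Markers of primitive erythroid cells went both ways, with 6 of 8 higher and 2 lower in Tie2-Ezh2-KO than in WT. Their median change was 1.04, beside 0.01 for all genes. Of 9 listed markers 8 are in the table, and 3, *Rhd* among them, are also on the red cell membrane list. Their summed level was 154, 133 and 151 RPKM in Tie2-Ezh2-WT, 73.9 and 125 RPKM in Vav-Ezh2-WT and 89.2, 133, 67.6, 161 and 158 RPKM in Vav-Ezh2-KO. It was 327, 596, 876, 204 and 299 RPKM in Tie2-Ezh2-KO, where every library exceeded the 10 others. The most abundant gene was *Hbb-bh1*, an embryonic globin gene, at 89.7% of the sum in WT and 59.5% in Tie2-Ezh2-KO. With limma 4 of 8 markers rose in Tie2-Ezh2-KO against WT, beside 2.42% of all genes: *Hba-x* by 6.33, *Aqp3* by 1.86, *Rhd* by 1.95 and *Hbb-bh1* by 1.18 (adjusted p = 8.88e-05, 0.0471, 0.0214 and 0.0441). The *Hba-x* call was lost with limma-voom (adjusted p = 0.0785) and held in the other 20 alternatives, whose adjusted p started at 5.66e-05.

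The same 4 markers were higher in Tie2-Ezh2-KO than in Vav-Ezh2-KO EMPs (beside 2.63% of all genes), *Hba-x* by 5.64, *Rhd* by 2.31 and *Hbb-bh1* by 1.29, while 0 of 8 passed in Vav-Ezh2-KO against WT with limma, with 0 at an unadjusted p under 0.05. Between the knockouts 7 of 8 were higher and 1 lower. *Aqp3*, at 0 in every Vav-Ezh2-KO library, could only come out higher there. Without it 6 markers were higher and 1 lower, with a median of 1.29 beside 0.04 for all genes. Of these markers, *Alas2* was at most 3.51 RPKM in all 15 libraries, and *Aqp3* was at 0 in every Vav-Ezh2-KO library and 4 of 5 WT libraries. Set against the mean level that 3 reads would give in each Vav-Ezh2-KO library, 0.0921 RPKM, *Aqp3* was at least 9.49-fold higher in Tie2-Ezh2-KO. Its fitted difference depends on the scale (0.88 with a pseudocount of 1 to 5.81 with limma-voom) and passed in all 18 alternatives that tested it, and its change against WT ran from 0.70 to 4.95 over the alternatives. The part of these markers in the levels of *Epor*, *Klf1*, *Tspan33*, *Rhd*, *Cldn13* and *Kcnn4* was not tested. Against WT, the adjusted p of *Hbb-bh1* with limma ranged from 0.0248 to 0.246 over the alternatives and missed the threshold without Tie2-Ezh2-WT replicate 4 (0.0560), 10 (0.0740) or 12 (0.0535), Vav-Ezh2-WT replicate 4 (0.101) or 6 (0.0827), or Tie2-Ezh2-KO replicate 7 (0.0996), 9 (0.0744) or 11 (0.0767). It held in 6 of 21 alternatives, and was also lost without a filter (0.114), with a mean of at least 1 RPKM (0.0525), with a common median (0.0556), with eBayes without trend (0.118), with limma-voom (0.0851), against Tie2-Ezh2-WT alone (0.246) and without Tie2-Ezh2-WT replicate 4 and Tie2-Ezh2-KO replicate 7 together (0.123). For *Aqp3* it ranged from 0.00126 to 0.322 and missed the threshold without Tie2-Ezh2-WT replicate 10 (0.122) or 12 (0.114), Vav-Ezh2-WT replicate 4 (0.124) or 6 (0.116), or Tie2-Ezh2-KO replicate 7 (0.0999), 11 (0.112), 13 (0.0711) or 17 (0.110), with a pseudocount of 1 (0.0781), without a filter (0.0923), after quantile normalization (0.0681), with eBayes without trend (0.0734) and against Tie2-Ezh2-WT alone (0.322). Between the knockouts the *Hbb-bh1* call, with adjusted p from 0.0176 to 0.0922 over the alternatives, was lost without Tie2-Ezh2-KO replicate 7 (0.0689) or 11 (0.0609) or Vav-Ezh2-KO replicate 1 (0.0736), 9 (0.0575) or 10 (0.0697), without a filter (0.0832) and with eBayes without trend (0.0922).

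Markers of visceral endoderm were high in 2 libraries. Their sum over 10 genes was 216, 21.7 and 25.04 RPKM in Tie2-Ezh2-WT and 17.5 and 26.9 RPKM in Vav-Ezh2-WT. The sum was 294, 35.3, 25.2, 24.7 and 35.1 RPKM with *Tie2*-Cre and 19.6, 15.2, 15.3, 23.3 and 11.4 RPKM with *Vav*-iCre, and these knockouts did not overlap. Tie2-Ezh2-WT replicate 4 and Tie2-Ezh2-KO replicate 7 stood far above the other 13 libraries. *Trf*, which is also on the iron list, was the most abundant marker, *Alb* was listed at 0 in all libraries, and *Amn* alone passed with limma (it rose by 3.01 in Tie2-Ezh2-KO against WT and was 3.42 higher than in Vav-Ezh2-KO, adjusted p = 0.00155 and 0.000149). That is 1 of 8 markers tested in each, where 2.42% and 2.63% of all genes were higher. *Amn* was at 0 in 3 of 5 WT and 4 of 5 Vav-Ezh2-KO libraries, so its size depends on the scale: from 1.51 with a pseudocount of 1 to 5.78 with limma-voom against WT and from 1.66 to 6.61 against Vav-Ezh2-KO, past the threshold in all alternatives. Against WT, 0 of 7 markers passed in Vav-Ezh2-KO with limma and 1 had an unadjusted p under 0.05, beside 7.93% of all genes. By direction, 8 of 8 markers tested were higher in Tie2-Ezh2-KO than in WT (median change 0.44), 8 of 8 higher than in Vav-Ezh2-KO (1.71) and 7 of 7 lower in Vav-Ezh2-KO than in WT (-0.98), beside 0.01, 0.04 and -0.02 for all genes. At least 1 of the 8 exceeded 0.2 RPKM in Tie2-Ezh2-KO libraries only. The filter thus favored its direction, and its part in both counts of 8 shows nothing. The part of these markers in the erythroid levels was not tested.

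Tie2-Ezh2-KO replicate 7 also had the highest *Klf1*, *Nfe2*, *Epor*, *Epb4.2* and *Ermap* of all libraries. Tie2-Ezh2-WT replicate 4 was the highest in none of these genes, at 153, 235, 23.8, 0.111 and 2.20 RPKM in that order. Without Tie2-Ezh2-KO replicate 7 and Tie2-Ezh2-WT replicate 4, a choice made after seeing the data, the change in *Epor* was 0.48 in Tie2-Ezh2-KO against WT (adjusted p = 0.195 with limma, beside 0.0740 with all libraries). In the same fit 217 genes passed the threshold in place of 386, *Tspan33* was still past it, and *Rhd* (adjusted p = 0.122), *Cldn13* (0.0700) and *Socs2* (0.141) were not with limma. Their changes stayed near those with all libraries: 2.63 for *Tspan33* (2.55 with all), 1.84 for *Rhd* (1.95), 2.58 for *Cldn13* (2.38) and 0.94 for *Socs2* (1.06), from 8 libraries in place of 10.

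Beside the counts of markers that follow, 11% of all genes had an unadjusted p under 0.05 in Tie2-Ezh2-KO against WT, 7.93% in Vav-Ezh2-KO against WT, 16.6% between the knockouts and 6.54% in the difference of the effects. At the adjusted threshold with limma, the shares of all genes were 2.73%, 0.00733%, 3.51% and 0.181% in the same order. Of 8 macrophage markers tested 0 passed with limma in Tie2-Ezh2-KO against WT (3 at an unadjusted p under 0.05), *Cd68* was the most abundant and fell by 0.71 relative to Vav-Ezh2-KO (adjusted p = 0.0333), the sums were 9.41 to 28.2 RPKM, and *C1qa* was at 0 in all libraries. That *Cd68* call was lost without Tie2-Ezh2-KO replicate 7 (0.0606), 11 (0.0653) or 17 (0.0508) or Vav-Ezh2-KO replicate 1 (0.0690), 26 (0.0824) or 28 (0.0940), with limma-voom (0.0852), without a filter on low values (0.0513) and with eBayes without trend (0.0622), and its adjusted p with limma lay between 0.00898 and 0.0940 over the alternatives. The 12 megakaryocyte markers summed to 269.9 to 547 RPKM, with *Plek* the most abundant. With limma, 1 of the 12 passed in Tie2-Ezh2-KO against WT and 1 between the knockouts, with 3 at an unadjusted p under 0.05 in each. *Gp1ba* fell by 0.94 in Tie2-Ezh2-KO against WT (adjusted p = 0.0495 with limma) and *Treml1* differed between the knockouts by -1.04 (adjusted p = 0.00984 with limma, at most 0.0376 in all alternatives). The *Gp1ba* call held in 6 of 21 alternatives, with adjusted p from 0.0174 to 0.250, and was lost without Tie2-Ezh2-WT replicate 4 (0.121) or 10 (0.134), Vav-Ezh2-WT replicate 4 (0.146) or 6 (0.0702), or Tie2-Ezh2-KO replicate 7 (0.131), 9 (0.0640), 11 (0.0844) or 17 (0.103). It was also lost with a pseudocount of 1 (0.0605), without a filter (0.0802), with a mean of at least 1 RPKM (0.0538), with eBayes without trend (0.0641), with limma-voom (0.162), against Tie2-Ezh2-WT alone (0.231) and without Tie2-Ezh2-WT replicate 4 and Tie2-Ezh2-KO replicate 7 together (0.250).

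Of 7 mast cell markers in the table, which summed to 76.0 to 242 RPKM, 0 passed in Tie2-Ezh2-KO against WT with limma (1 at an unadjusted p under 0.05), and *Cpa3*, the most abundant, differed by -1.61 between the knockouts (adjusted p = 0.0199 with limma, 0.0529 without Vav-Ezh2-KO replicate 1, 0.0543 without Vav-Ezh2-KO replicate 9, 0.0637 without a filter, 0.0673 with eBayes without trend, and from 0.00723 to 0.0673 over the alternatives). The sums of the mast cell markers in Tie2-Ezh2-KO (102, 76.0, 87.8, 81.7 and 106 RPKM) all lay below those in Vav-Ezh2-KO (133, 242, 114, 120.4 and 120.0 RPKM). By direction, 5 of 7 mast cell markers were higher in Tie2-Ezh2-KO than in Vav-Ezh2-KO, with a median of 0.23 beside 0.04 for all genes, or 4 of 6 with a median of 0.24 without 1 marker at 0 in every library of 1 group. Of 10 endothelial markers 0 passed with limma in any test, with 2, 0, 4 and 1 at an unadjusted p under 0.05 in the order of the tests above, the sums were 38.5 to 77.3 RPKM and *Pecam1* was the most abundant. In Tie2-Ezh2-KO EMPs 8 of the 10 endothelial markers were higher than in WT and 8 higher than in Vav-Ezh2-KO, with median changes of 0.36 and 0.42 beside 0.01 and 0.04 for all genes. *Pecam1* went the other way, by -0.62 against WT (adjusted p = 0.150 with limma), where each of the 5 knockout libraries was lower than every WT library (exact permutation p = 0.00794), and by -0.72 against Vav-Ezh2-KO (adjusted p = 0.123 with limma). Of 6 mesenchyme markers tested 0 passed with limma, with 1, 0, 1 and 1 at an unadjusted p under 0.05, *Pdgfrb* was the most abundant, and the sums of all 10 were 1.61 to 3.88 RPKM. Against WT, in Vav-Ezh2-KO, 0 of the macrophage, megakaryocyte and mast cell markers passed with limma, with 0, 1 and 0 at an unadjusted p under 0.05. In Tie2-Ezh2-KO against WT, 5 of 7 macrophage, 10 of 12 megakaryocyte, 4 of 6 mast cell and 2 of 5 mesenchyme markers were lower, with median changes of -0.21, -0.19, -0.11 and 0.16, leaving out 1 macrophage, 1 mast cell and 1 mesenchyme marker at 0 in every library of 1 group. The part of these cell types in the levels of the erythroid genes was not tested.

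The 250 bases upstream of each start were searched on both strands for GATA motifs (any of AGATAA or AGATAG or TGATAA or TGATAG), for CCNCNCCC, which contains the core bound by KLF1, and for the NF-E2 motif. Of the 9 genes 7 have a promoter in the RefSeq table (GRCm38.p6), and *Nfe2* and *Slc4a1* do not. A GATA motif was found in 4 of the 7, *Klf1*, *Epor*, *Epb4.2* and *Ermap*, beside 29.7% of 27025 genes with a promoter. CCNCNCCC was found in 4, *Gata1*, *Zfpm1*, *Epor* and *Tfrc*, beside 48.5%, and the NF-E2 motif in 0, beside 0.407%. *Epor* alone held both a GATA motif and CCNCNCCC, as did 9.43% of all genes with a promoter, within 1 promoter. A match is a description of letters, not a site or a cause.

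The stretches with a GATA motif are printed here for the 4 of the 9 genes that have one, *Epor* and *Klf1* among them, with the capitals marking matches to a GATA motif on either strand and, in *Epor*, also to CCNCNCCC, whose matches overlap each other. They lie at chr9:21963580-21963715, minus strand (*Epor*), chr8:84901887-84901922, plus strand (*Klf1*), chr2:121037083-121037118, minus strand (*Epb4.2*) and chr4:119190042-119190077, minus strand (*Ermap*), and each is written 5′ to 3′ on the strand of its gene.
Epor: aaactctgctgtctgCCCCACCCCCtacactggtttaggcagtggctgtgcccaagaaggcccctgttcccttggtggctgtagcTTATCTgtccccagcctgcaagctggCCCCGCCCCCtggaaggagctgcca
Klf1: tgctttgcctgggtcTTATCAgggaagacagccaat
Epb4.2: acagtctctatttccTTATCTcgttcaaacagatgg
Ermap: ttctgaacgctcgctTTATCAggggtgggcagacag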

How the data were processed

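EMPs were sorted from E10.5 YS and sequenced as 75-base single-end reads from cDNA made with a kit that does not mark strand. The authors aligned them to GRCm38 with TopHat 2.0.13, counted reads on RefSeq models with featureCounts and deposited RPKM. The RPKM values were used on the log2(RPKM + 0.2) scale. Fits were made in R 4.3.3 with lmFit and trended eBayes of limma 3.58.1, from genes above 0.2 RPKM in 1 or more libraries, Benjamini-Hochberg adjustment over all genes tested and a threshold of 0.05. Exact permutation tests and correlations used Python 3.11.15 and scipy 1.17.1. Whole reads were recovered for all 16877 genes above 0 (each value within 1e-06 of a whole number of reads, or within that fraction of it above 1 read). Depths are the library totals that the steps between low RPKM values gave. The recovered reads of a library summed to 99.9989% to 100.0005% of its total. Alternatives were other pseudocounts, filters, scalings and controls, eBayes without trend, limma-voom on the recovered reads, all libraries in 1 fit and each library left out. The labels do not assign libraries to the independent experiments, so no batch term was fitted. The 9 genes and the lists were chosen with earlier results of these data known. Genes named are the 9, *Ezh2*, the most abundant and passing marker of each marker list, and the 2 nearest genes by r. Listed pathway genes are named if they passed the threshold in any comparison, without counting the alternatives. So are those among the 3 lowest p of their list in Tie2-Ezh2-KO against WT. Beyond that rule, sort markers and markers at or near 0 were named after their values were seen. Some genes are not reported here.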

Additional observations from a re-analysis of the deposited data

Results flagged for a closer look

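The 9 genes, *Ezh2*, the pathway genes named by the rule and the most abundant and passing markers were checked in WT and in either knockout, which gave 117 groups of 5 values that were not all 0, and in 12 of them a library lay farther from the others than Dixon's 95% critical value of 0.71 allows. Chance gives this in about 1 in 20 groups of normally distributed values. RPKM values need not be so distributed, least of all in groups with several values at 0. The 12 groups can therefore not be set against that rate. *Epor* was at 29.4 RPKM in Vav-Ezh2-KO replicate 9, above the others of its group, and *Slc4a1* at 0.386 RPKM in Tie2-Ezh2-KO replicate 11. *E2f4* stood apart at 143 RPKM in Vav-Ezh2-KO replicate 9. *Pim1* did so at 4.76 RPKM in Vav-Ezh2-KO replicate 26. *Tspan33* was lowest of its group at 10.02 RPKM in Tie2-Ezh2-KO replicate 9, and *Pecam1* stood apart there at 6.67 RPKM. *Aqp3* was at 0.872 RPKM in Tie2-Ezh2-WT replicate 4 and at 0 in the other WT libraries. *Trf* was at 48.9 RPKM in Tie2-Ezh2-WT replicate 4 and 51.6 RPKM in Tie2-Ezh2-KO replicate 7. *Amn* was at 0.798 RPKM in Tie2-Ezh2-WT replicate 4, 4.66 RPKM in Tie2-Ezh2-KO replicate 7 and 0.176 RPKM in Vav-Ezh2-KO replicate 10.

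The effects of the knockouts on *Hba-x*, each against its own WT, differed by 6.41 on the log2 scale (standard error 1.24, adjusted p = 0.0457 with limma, from 0.0252 to 0.730 over the alternatives). This passed in 5 of 24 alternatives. Changes of processing that lost it were a pseudocount of 0.05 (0.0519), no filter (0.127), a mean of at least 1 RPKM (0.0598), quantile normalization (0.0703), a common median (0.0605), eBayes without trend (0.0945) and limma-voom (0.730), and so did leaving out both Tie2-Ezh2-WT replicate 4 and Tie2-Ezh2-KO replicate 7 (0.0564). It was also lost without Tie2-Ezh2-WT replicate 4 (0.0659), 10 (0.158) or 12 (0.0938), Vav-Ezh2-WT replicate 4 (0.125) or 6 (0.390), Tie2-Ezh2-KO replicate 9 (0.0515), 11 (0.0774) or 17 (0.0823), or Vav-Ezh2-KO replicate 1 (0.0806), 10 (0.0644) or 28 (0.0766). *Hba-x* was at 38.4, 305, 339, 32.9 and 117 RPKM in Tie2-Ezh2-KO, above the highest of the 10 other libraries, 8.51 RPKM.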

How the results depend on the processing

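No paired analysis was possible, because the labels name no pairs of libraries and do not assign libraries to experiments. In Tie2-Ezh2-KO against WT, 386 genes passed with all libraries, 240 with a mean of at least 1 RPKM and 187 with Tie2-Ezh2-WT as the only controls. Leaving out libraries gave 217 (both Tie2-Ezh2-WT replicate 4 and Tie2-Ezh2-KO replicate 7, chosen after seeing the data) to 438 (Tie2-Ezh2-KO replicate 9). Of the 9 genes 1, *Epor*, passed after quantile normalization or common-median scaling, with all 15 libraries and without Tie2-Ezh2-KO replicate 9, and 0 to 1 with libraries left out. In Vav-Ezh2-KO against WT, 1 gene of the table passed, 0 with limma-voom, 2 against Vav-Ezh2-WT alone and 1 to 2 with a library left out. Between the knockouts, 495 genes passed, 320 without Vav-Ezh2-KO replicate 28 and 969 without Tie2-Ezh2-KO replicate 9, and of the 9 genes 0 to 2. The effects differed in 26 genes, 16 without a filter, 10 with a mean of at least 1 RPKM, 12 after quantile normalization, 16 with a common median, 2 with limma-voom and 8 to 32 with libraries left out. Of the 27 exact permutation tests 3 had a p under 0.05, and 1 to 5 with libraries left out.

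Signs turned as follows. In Tie2-Ezh2-KO against WT, *Zfpm1* was 0.0050 with limma-voom, and with Tie2-Ezh2-WT alone *Nfe2* was -0.0726, *Zfpm1* 0.17 and *Tfrc* -0.0282. With libraries left out, *Nfe2* ranged from -0.0445 to 0.0589, *Zfpm1* from -0.28 to 0.14, *Tfrc* from -0.0225 to 0.11, *Epb4.2* from -0.0316 to 0.95 and *Ermap* from -0.35 to 0.17. In Vav-Ezh2-KO against WT, *Ezh2* was 0.0010 after quantile normalization and 0.0204 with a common median, and *Epb4.2* -0.0417 with limma-voom. Against Vav-Ezh2-WT alone, *Klf1* was 0.0230, *Nfe2* 0.0233, *Epor* -0.0139 and *Epb4.2* -0.28. With a library left out, *Klf1* ranged from -0.17 to 0.0170, *Epb4.2* from -0.0766 to 0.31 and *Ezh2* from -0.10 to 0.0151. In the difference of the effects, *Gata1* was 0.0035 after quantile normalization and *Tfrc* 0.0318 with limma-voom, and with libraries left out *Gata1* ranged from -0.17 to 0.10, *Zfpm1* from -0.14 to 0.30, *Tfrc* from -0.10 to 0.0732 and *Ermap* from -0.18 to 0.82. The cause was not tested. Of the other values of single genes and lists, 2214 kept their direction and side of the threshold, 158 no longer passed, 13 newly passed and 34 counts over the lists moved by more than 1.5 times.

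Whole-gene RPKM does not resolve exons or strand, the amplified reads are not independent molecules, and the low genes *Epb4.2* and *Ermap* had wide intervals. The Cre transgene and the deletion were not separated, and libraries could not be assigned to experiments.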
